A study of Mus musculus with 2 samples.

Results

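Muscle contracts when calcium leaves the sarcoplasmic reticulum, the calcium store of the fibre, and relaxes when the calcium is pumped back. A voltage sensor in the surface membrane opens the release channel of the reticulum, calcium-binding proteins hold calcium in the store and in the cytosol, and ATP-driven pumps refill the store under the control of small inhibitory membrane peptides. Fast and slow fibres use different members of these families, and satellite cells, the stem cells that lie on the fibre, have no contractile apparatus of their own. Described here are 10 genes of this cycle, taken by their symbols from the 32285 features counted in both libraries: the pumps Atp2a1 (SERCA1, of fast fibres) and Atp2a2 (SERCA2, of slow fibres, heart and most other cells), the pump inhibitors Sln (sarcolipin) and Pln (phospholamban), the release channel Ryr1, its voltage sensor Cacna1s and the channel's partner Trdn (triadin), the luminal calcium stores Casq1 and Casq2 (the fast and the cardiac or slow calsequestrin), and Pvalb (parvalbumin, the cytosolic calcium buffer of fast fibres). All 10 have a feature in the tables of both libraries, and 9 had UMIs in the kept barcodes of both, Pln being absent from the kept QSC barcodes.

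The libraries were made to compare quiescent satellite cells (QSC) with activated satellite cells (ASC) in mouse muscle. Both came from 8-week-old mice of the genotype Pax7 CreERT2/+ ;Rosa26 mTmG/+, in which a Cre made under the Pax7 gene switches a fluorescent membrane reporter. The sort therefore relied on this reporter and did not read Pax7 itself at the time of sorting. The QSC library held cells sorted from uninjured tibialis anterior (TA) muscle, and the ASC library cells sorted from TA muscle 1.5 days after injection of cardiotoxin (CTX), a toxin that destroys muscle fibres. The labels name TA muscle and the sorting protocol hind-limb muscle, from which mononuclear cells were taken through strainers. Each library came from a pool of mice and stands alone in its group. Group and library therefore cannot be told apart, no difference between them has a replicate check, and every interval given is a 95% interval for counting error only.

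After barcodes with fewer than 500 genes or more than 10% mitochondrial transcripts were removed, 516 QSC barcodes held 1162091 unique molecular identifiers (UMIs, each standing for 1 captured transcript) and 1468 ASC barcodes held 8895815. The median QSC barcode had 2155 UMIs and the median ASC barcode 3502, and 2 kept barcode sequences occurred in both. Against the label, many barcodes were rich in fibre transcripts. Barcodes in which 10 fibre genes, none of them a member, supplied at least 10% of the UMIs (Acta1, Myh1, Myh2, Myh4, Mylpf, Myl1, Tnnc2, Tnni2, Tnnt3 and Ckm) are called fibre-rich and all others fibre-low. Fibre-rich were 102 QSC barcodes (19.8%) and 852 ASC barcodes (58.0%), with median mitochondrial shares of 0.718% and 0.171% against 4.80% and 1.90% in fibre-low barcodes. Pax7, the transcription factor of satellite cells, stood at 9.45 and 1.08 CPM (UMIs of the gene per 1000000 UMIs) in fibre-rich QSC and ASC barcodes. In fibre-low ones it stood at 194 and 26.3 CPM. A list of 7 satellite-cell genes (Pax7, Myf5, Cd34, Vcam1, Chodl, Calcr and Des) did not follow Pax7 in the ASC library. Its sum was 0.469% of UMIs in fibre-rich and 0.166% in fibre-low ASC barcodes, against 0.263% and 0.349% in QSC ones. Only 6 kept QSC barcodes but 169 ASC barcodes had a fibre share between 8% and 12%, close to the limit.

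Promoters are shown for a pump, a store, a buffer and a pump inhibitor, 1 gene each, from the genes for which a RefSeq window was at hand, which leaves out Atp2a2, Sln and Trdn. The windows of the release genes Ryr1 and Cacna1s are not printed. The windows below cover bases 250 to 41 before the RefSeq start (GRCm38.p6, the build also called mm10) and are written 5′ to 3′ on the strand of the gene. Capitals mark matches to the E-box CANNTG, the letters read by myogenic factors, or in Pvalb a match to the MEF2 motif, searched on both strands.

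Atp2a1, chr7:126463114-126463323, minus strand: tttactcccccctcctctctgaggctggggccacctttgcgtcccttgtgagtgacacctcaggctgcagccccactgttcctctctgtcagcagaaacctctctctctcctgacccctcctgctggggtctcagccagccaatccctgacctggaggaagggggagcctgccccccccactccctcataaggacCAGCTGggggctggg

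Casq1, chr1:172219936-172220145, minus strand: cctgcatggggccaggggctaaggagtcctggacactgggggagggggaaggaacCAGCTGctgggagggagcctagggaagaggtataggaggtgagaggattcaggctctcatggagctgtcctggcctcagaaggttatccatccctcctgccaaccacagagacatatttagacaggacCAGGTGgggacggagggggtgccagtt

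Pvalb, chr15:78206441-78206650, minus strand: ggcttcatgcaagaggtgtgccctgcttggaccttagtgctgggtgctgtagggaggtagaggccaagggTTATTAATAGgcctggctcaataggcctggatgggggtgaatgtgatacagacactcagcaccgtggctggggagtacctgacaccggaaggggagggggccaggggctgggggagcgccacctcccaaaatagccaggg

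Pln, chr10:53337436-53337645, plus strand: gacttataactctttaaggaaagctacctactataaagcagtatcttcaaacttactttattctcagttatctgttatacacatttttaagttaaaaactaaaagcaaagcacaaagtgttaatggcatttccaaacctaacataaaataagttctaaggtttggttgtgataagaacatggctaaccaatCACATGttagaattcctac

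The Atp2a1 window held 1 E-box, which began 55 bases before the start, the Casq1 window held 2, at 195 and 67 bases, and the Pln window 1 at 59 bases. The outer Pvalb window held no E-box and a MEF2 match at 180 bases, and a second annotated Pvalb start, inside the gene, had an E-box at 111 bases. RefSeq windows were at hand for 7 of the 10 genes, 8 windows in all. Of the 8 windows, 6 held an E-box and 2 a MEF2 match (Pvalb and Casq2), whereas 60.7% and 2.50% of all 32851 windows of the same length did. Among the release genes, the Ryr1 window held neither motif and the Cacna1s window held 2 E-boxes. The Atp2a1, Casq1 and outer Pvalb windows lay outside annotated genes and the Pln window lay in an intron of Cep85l, which runs on the other strand. These matches are descriptions of letters and not of binding.

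Over all kept barcodes the ASC library held more Sln, Pln and Pvalb per UMI, while the pump, triadin and calsequestrin of fast fibres were lower by less than 2-fold. Sln stood at 4.30 CPM (5 UMIs) among QSC and 77.9 CPM (693 UMIs) among ASC barcodes, a log2 ratio of 4.18 (95% interval 2.95 to 5.81). Pln had no UMI among QSC barcodes and 113 among ASC barcodes, 4.92-fold higher when the QSC count is set to a floor of 3. The 95% interval of its log2 ratio began at 1.98 and had no upper end. Pvalb stood at 2384 and 5107 CPM, a log2 ratio of 1.10 (1.04 to 1.15). Atp2a1 (1155 and 810 CPM), Trdn (282 and 155 CPM) and Casq1 (87.8 and 50.02 CPM) had log2 ratios of -0.51, -0.87 and -0.81, with intervals that excluded 0. Atp2a2 was at 23.2 and 38.0 CPM, and the intervals of Ryr1 and Cacna1s included 0. Of the 9 genes with at least 20 UMIs over both libraries, 3 were at least 2-fold higher and 0 at least 2-fold lower, where 16.0% of all 11189 genes with that many UMIs were higher and 23.0% lower. The median log2 ratio was 0.27 over the 9 genes and -0.10 over all genes tested. With the limit of 1% mitochondrial UMIs that the study used, 86 QSC and 948 ASC barcodes were left, Pvalb had a log2 ratio of 0.01 (-0.05 to 0.08), and Atp2a1, Trdn and Casq1 had ratios of -1.41, -1.96 and -1.86. Of these 86 QSC barcodes only 2 were fibre-low, so fibre-rich barcodes made up nearly the whole QSC side at that limit. Because this pooled comparison mixes barcode classes in different proportions, each class was compared by itself.

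**Figure D1:**
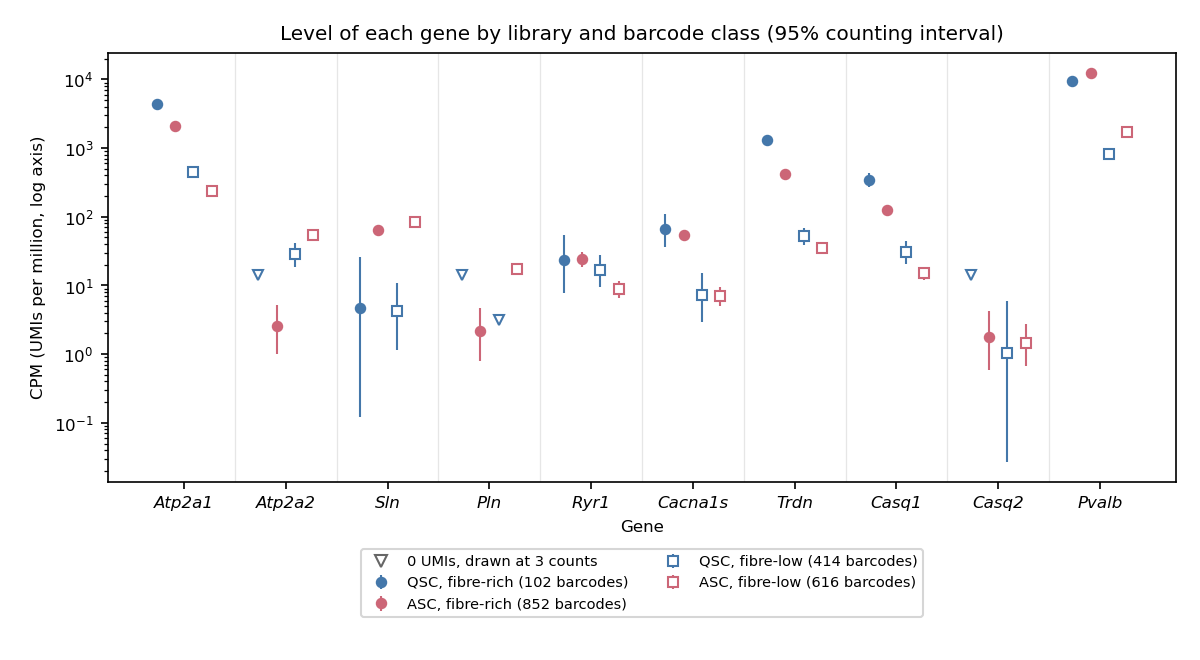
Level of each of the 10 genes in CPM on a log axis, with filled circles for fibre-rich and open squares for fibre-low barcodes, blue for the QSC and red for the ASC library, bars for 95% counting intervals and open triangles for genes with 0 UMIs, drawn at 3 counts. Atp2a1, Trdn, Casq1 and Pvalb were 7.20- to 24.98-fold higher in fibre-rich than in fibre-low barcodes of the same library, and Atp2a2 stood the other way, at 2.53 CPM in fibre-rich and 54.0 CPM in fibre-low ASC barcodes.

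Within each library the members fell into those that followed the fibre transcripts and those that did not. Fibre-rich over fibre-low barcodes of the ASC library, Atp2a1 stood at 2083 against 234 CPM, Trdn at 420 against 35.1, Casq1 at 127 against 15.0, Cacna1s at 54.5 against 7.02, Pvalb at 12548 against 1742 and Ryr1 at 24.2 against 8.81 CPM. These are differences of 8.90-, 11.95-, 8.49-, 7.77-, 7.20- and 2.74-fold. Atp2a2, the pump of cells other than fast fibres, went the other way, with 2.53 CPM below 54.0 CPM and a log2 ratio of -4.42 (-5.74 to -3.36), and Pln at 2.17 against 17.5 CPM, a ratio of -3.01 (-4.49 to -1.84). In all, 6 of 9 genes were at least 2-fold higher in fibre-rich ASC barcodes and 2 at least 2-fold lower, where 14.0% of all genes tested were higher and 48.5% lower, and the medians were 2.85 over the 9 genes and -0.93 over all. The Pln and Sln values of fibre-low barcodes rested on 13 barcodes described below. Without them Pln was at 6 against 8 UMIs, with a ratio of 0.72 (-1.09 to 2.43), and the Sln ratio went from -0.42 to 1.45 (1.12 to 1.78).

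In the QSC library 5 of 7 genes were at least 2-fold higher in fibre-rich barcodes and 1 lower, where 17.3% of all genes tested were higher and 47.8% lower. The medians were 3.27 and -0.89. Trdn, the anchor between the release channel and calsequestrin, had the largest difference at 24.98-fold (1314 against 52.6 CPM), followed by Pvalb at 11.6-fold, Casq1 at 11.3-fold, Atp2a1 at 9.63-fold and Cacna1s at 8.99-fold. Atp2a2 had no UMI among 211546 in fibre-rich QSC barcodes and 27 in fibre-low ones, 2.00-fold lower when the count of 0 is set to 3. The interval of its log2 ratio ended at -0.60, which is short of 2-fold. The value of 2.00 sits on the 2-fold limit, and no 2-fold difference was called with 7 of the alternative settings. Ryr1 was at 23.6 and 16.8 CPM from 5 and 16 UMIs, a log2 ratio of 0.49 (-1.31 to 2.00) that is not resolved at this depth. Pln had 0 UMIs in both classes and Sln 1 and 4, so nothing can be said of them in uninjured muscle at this depth.

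Among fibre-rich barcodes alone, transcripts of the fast pump Atp2a1, of triadin and of the fast calsequestrin were lower in the ASC library, that of the cytosolic buffer Pvalb was not, and those of the release channel and its voltage sensor were not resolved. Atp2a1 stood at 4325 CPM (4050 to 4615) in 102 QSC barcodes and 2083 CPM (2030 to 2138) in 852 ASC barcodes, a log2 ratio of -1.05 (-1.15 to -0.95). Per barcode, its lower quartile, median and upper quartile were 2097, 3310 and 6148 CPM for QSC and 1046, 1776 and 2777 CPM for ASC, so the ranges overlapped. Trdn stood at 1314 and 420 CPM, with barcode medians of 1124 and 322 CPM, and a log2 ratio of -1.65 (-1.84 to -1.45). Casq1 stood at 345 and 127 CPM, a ratio of -1.44 (-1.80 to -1.05). Pvalb stood at 9449 and 12548 CPM, with barcode medians of 8117 and 11569.5 CPM, a ratio of 0.41 (0.34 to 0.47). Sln was at 1 UMI of 211546 against 175 of 2769864, or 4.73 and 63.2 CPM, a ratio of 3.74 (1.24 to 9.05). Ryr1 (5 and 67 UMIs) and Cacna1s (14 and 151 UMIs) had ratios of 0.03 (-1.26 to 1.70) and -0.28 (-1.07 to 0.63).

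**Figure D2:**
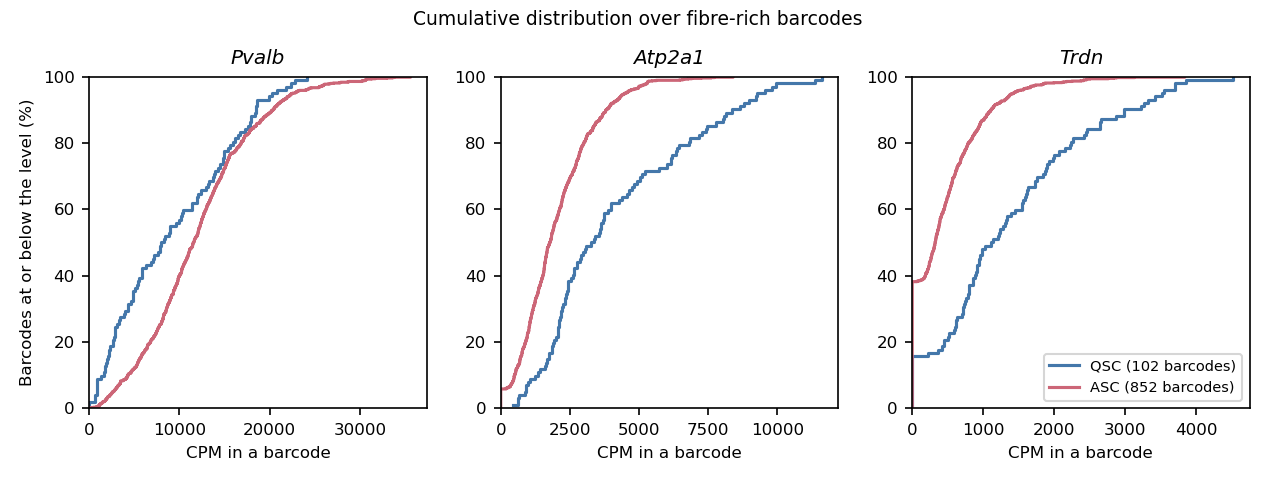
Cumulative share of fibre-rich barcodes (vertical axis, percent) at or below a level in CPM (horizontal axis) for Pvalb, Atp2a1 and Trdn, with the 102 QSC barcodes in blue and the 852 ASC barcodes in red. The ASC curve lies to the left for Atp2a1 and Trdn and, at each quartile, to the right for Pvalb, and Trdn had a UMI in 86 of the 102 QSC and 527 of the 852 ASC barcodes before depth was matched.

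Of the 7 members tested among fibre-rich barcodes, 1 was at least 2-fold higher and 3 at least 2-fold lower in the ASC library, where 18.3% of all 6057 genes tested were higher and 9.30% lower. The medians were -0.28 over the 7 genes and 0.10 over all. After every barcode was thinned to 1200 UMIs, which left 88 QSC and 782 ASC barcodes, Trdn had a UMI in 72.7% (62.2 to 81.7) and 38.0% (34.6 to 41.5) of fibre-rich barcodes, against 84.3% and 61.9% unthinned. Casq1 had a UMI in 37.5% (27.4 to 48.5) and 12.9% (10.6 to 15.5), against 43.1% and 26.4% unthinned. For the background, immune-marker-high ASC barcodes, which should lack both, had Trdn in 4% (0.833 to 11.2) and Casq1 in 2.67% of 75 barcodes after thinning. In the QSC library 1 of 12 such barcodes held Trdn (8.33%, 0.211 to 38.5) and 0 of 12 held Casq1, which allows a share of up to 25%. Median depth was 6436 UMIs in these ASC and 2036 UMIs in these QSC barcodes, against 2730 UMIs in fibre-rich ASC barcodes and 1644 in fibre-rich QSC barcodes. The part of depth in the CPM ratios was not tested, and among barcodes with at most 1% mitochondrial UMIs the Atp2a1, Trdn and Casq1 ratios were -1.16, -1.73 and -1.62.

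The fast myosin a barcode carried was then used to compare like with like, a split made after the values were seen. A fibre-rich barcode with at least 3 UMIs of Myh1, Myh2 and Myh4, the fast myosins IIX, IIA and IIB, was assigned to the myosin that held over 50% of them. Of the 102 fibre-rich QSC and 852 fibre-rich ASC barcodes, 13 and 318 were Myh4-dominant, 30 and 101 Myh1-dominant and 3 and 14 Myh2-dominant. The assigned barcodes of the libraries thus differed in their myosin make-up. All other fibre-rich barcodes had no class and are left out of this comparison. Median depth was 1644 UMIs in fibre-rich QSC and 2730 in fibre-rich ASC barcodes, and its part in the assignment was not tested. Of the 461563 UMIs in Myh1-dominant ASC barcodes, 76126 came from 1 barcode, against a class median of 3719 UMIs. Pvalb stood at 16778 CPM in Myh4-dominant QSC and 16205 CPM in Myh4-dominant ASC barcodes, a log2 ratio of -0.05 (-0.17 to 0.07), and at 6050 and 7936 CPM in Myh1-dominant ones, a ratio of 0.39 (0.24 to 0.54). Thus the higher Pvalb of fibre-rich ASC barcodes was not seen within the Myh4-dominant class. The lower values of the other 3 genes were seen in both classes. Trdn had ratios of -1.81 (-2.19 to -1.41) and -1.74 (-2.16 to -1.30), Casq1 of -1.73 (-2.40 to -0.99) and -1.18 (-2.05 to -0.23), and Atp2a1 of -1.65 (-1.84 to -1.45) and -0.66 (-0.87 to -0.45) in Myh4- and Myh1-dominant barcodes.

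**Figure D3:**
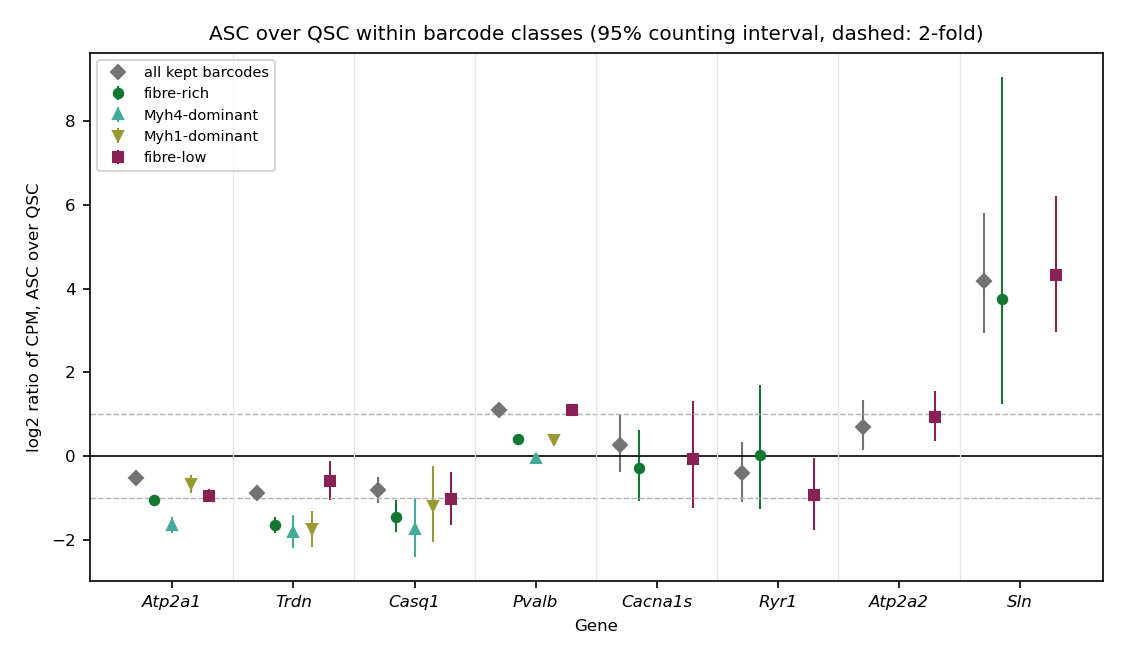
Log2 ratio of CPM, ASC over QSC, for 8 genes over all kept barcodes (diamonds), fibre-rich (circles), Myh4-dominant (upward triangles), Myh1-dominant (downward triangles) and fibre-low barcodes (squares), with 95% counting intervals and dashed lines at 2-fold. Trdn and Casq1 lie below 0 in every class, Pvalb lies at -0.05 in Myh4-dominant and 1.10 in fibre-low barcodes, and Sln lies above 0 with the widest intervals.

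Within the ASC library the myosin class went with the buffer far more than with the pump. Pvalb stood at 16205 CPM (15984 to 16428) in Myh4-dominant, 7936 CPM (7681 to 8197) in Myh1-dominant and 1641 CPM (1324 to 2010) in the 14 Myh2-dominant barcodes, an order in which no neighbouring intervals overlap. These intervals hold counting error only, and the Myh1-dominant sum includes the barcode of 76126 UMIs. The value of the Myh2-dominant barcodes was close to the 1742 CPM of fibre-low barcodes. Atp2a1 stood at 2195, 2147 and 1570 CPM in the same order, and the Myh4- over Myh1-dominant log2 ratio was 0.03 (-0.07 to 0.14). Trdn stood at 482, 305 and 318 CPM and Casq1 at 167, 97.5 and 70.6 CPM, with ratios of 0.66 (0.39 to 0.93) and 0.77 (0.30 to 1.27). Sln was highest in Myh2-dominant barcodes, with 47.2 CPM (36.0 to 60.8) in Myh4-dominant, 67.2 CPM (45.6 to 95.3) in Myh1-dominant and 547 CPM (372 to 776) in Myh2-dominant barcodes, where 31 UMIs came from 5 of the 14 barcodes. Its Myh4- over Myh1-dominant ratio of -0.51 (-1.16 to 0.17) included 0.

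Across the 852 fibre-rich ASC barcodes, the genes whose levels were most like those of a member were sought among 718 genes with at least 500 UMIs there. For Pvalb these were Myh4 (Pearson r 0.50), Actn3, a Z-disc protein of fast fibres (0.47), and the tropomyosin gene Tpm1 (0.44). For Atp2a1 they were Actn3 (0.25), the muscle creatine kinase gene Ckm (0.24) and the desmin gene Des (0.20), and for Trdn they were Ankrd23 (0.20), Tcap (0.17), both genes of titin-binding proteins, and Tpm1 (0.16). The members themselves were only loosely related, with r of 0.10 between Pvalb and Atp2a1, 0.12 between Pvalb and Trdn and 0.14 between Atp2a1 and Trdn. These values are descriptions over barcodes of 1 library that share its free RNA, and weak ones in sparse counts are no finding.

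Fibre-low barcodes were examined next, since these include the satellite cells. The ASC library was at least 2-fold higher in Sln, Pln and Pvalb and at least 2-fold lower in Casq1, that is 3 and 1 of 9 genes, where 18.4% of all genes tested were higher and 23.2% lower. The Casq1 difference was under 2-fold with 5 of the alternative settings, for example -0.70 with TMM scaling, which scales by a trimmed mean of gene ratios, and -0.28 at a fibre limit of 20%. The medians were -0.07 over the 9 genes and -0.09 over all. Pvalb stood at 812 and 1742 CPM (log2 ratio 1.10, 0.996 to 1.21), Atp2a1 at 449 and 234 CPM (-0.94, -1.10 to -0.78) and Casq1 at 30.5 and 15.0 CPM (-1.02, -1.64 to -0.37). Atp2a2, at 28.4 CPM from 27 UMIs and 54.0 CPM from 331 UMIs, had a ratio of 0.93 (0.36 to 1.55). Without the 13 barcodes the Sln ratio was 2.45 (1.07 to 4.35) instead of 4.33 and 8 Pln UMIs were left. Fibre-low barcodes of the libraries also differed in median depth (2214 and 6001 UMIs) and in the share of 6 fibroblast genes (0.790% and 0.0896% of UMIs), whose part in these ratios was not tested. When the limit between the classes was moved from 10% to 20% of fibre UMIs the Atp2a1 ratio was 0.02 (-0.09 to 0.13), so its value there depended on where the limit was set.

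In the ASC library Pvalb stood in much the same proportion to fibre transcripts in fibre-rich, fibre-low and immune-marker-high barcodes, though not within every smaller class. Per 1000 UMIs of the 10 fibre genes, fibre-rich, fibre-low and immune-marker-high ASC barcodes held 77.1 (76.3 to 77.9), 76.8 (75.3 to 78.2) and 73.7 (69.2 to 78.5) Pvalb UMIs. The immune-marker-high barcodes, 78 in the ASC and 15 in the QSC library, took at least 1% of their UMIs from 10 blood-cell genes such as Lyz2 and Ptprc, yet all 78 ASC barcodes held Pvalb. The QSC library gave 48.7 (46.5 to 50.8), 45.7 (42.5 to 49.0) and 66.5 (48.3 to 89.2). Atp2a1 gave 12.8, 10.3 and 7.55 for ASC and 22.3, 25.3 and 18.1 for QSC. The 3 ASC intervals of Pvalb overlap, so a Pvalb level in fibre-low barcodes could not be told from the level in barcodes that should lack the gene. Once immune-marker-high and slow-list-high barcodes were set aside, the other fibre-low ASC barcodes stood at 78.3 (76.7 to 79.9). Myh4-, Myh1- and Myh2-dominant ASC barcodes stood at 92.3, 49.1 and 10.7, and the 13 slow-list-high barcodes described below at 31.8 (26.0 to 38.6). Trdn was lower per fibre transcript in the fibre-low (1.55, 1.35 to 1.77) and immune-marker-high (0.982, 0.523 to 1.68) ASC barcodes than in fibre-rich ones (2.58, 2.43 to 2.73), and so was Atp2a1. The intervals of Casq1 overlap, at 0.783 (0.704 to 0.869), 0.662 (0.533 to 0.812) and 0.453 (0.166 to 0.986).

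**Figure D4:**
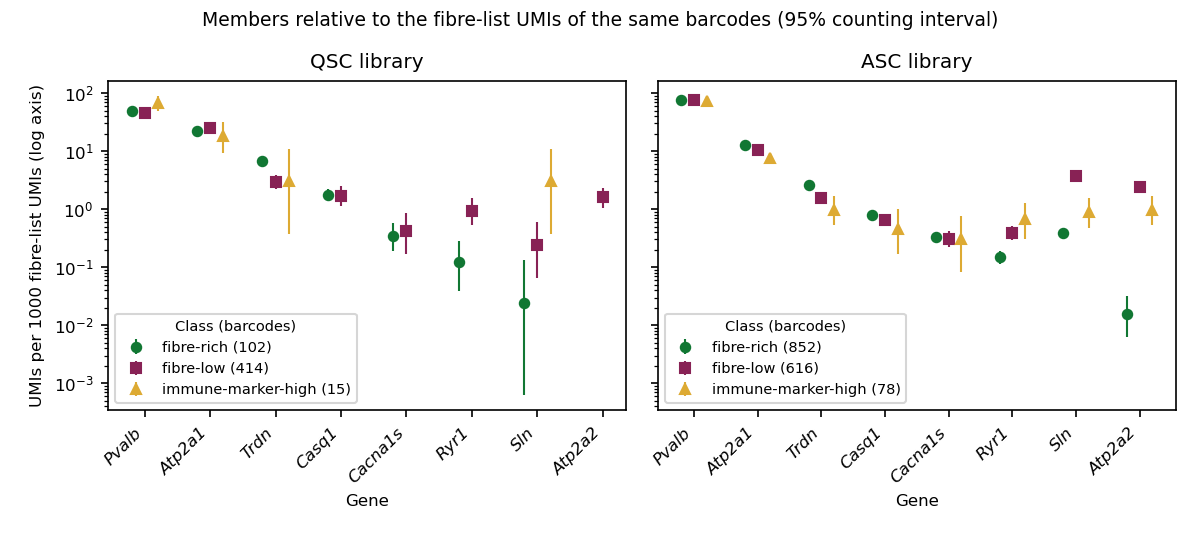
UMIs of 8 genes per 1000 fibre-list UMIs (log axis) in fibre-rich (circles), fibre-low (squares) and immune-marker-high barcodes (triangles) of the QSC library (left) and the ASC library (right), with 95% counting intervals and without a mark where a gene had 0 UMIs. Pvalb lies at one height in the 3 ASC classes, between 73.7 and 77.1, whereas Atp2a2 lies at 0.0155 in fibre-rich and 2.38 in fibre-low ASC barcodes.

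Like Trdn and Atp2a1 in the ASC library, Atp2a2 and Ryr1 did not keep such a ratio. Sln is left out of this comparison, since its fibre-low ASC value rested largely on 13 barcodes described below. Per 1000 fibre-list UMIs Atp2a2 stood at 0.0155 (0.00624 to 0.0320) in fibre-rich, 2.38 (2.13 to 2.65) in fibre-low and 0.982 (0.523 to 1.68) in immune-marker-high ASC barcodes. Among all pump UMIs, Atp2a1 made up 99.9% (5771 UMIs beside 7 of Atp2a2) in fibre-rich and 81.2% (79.3 to 83.0) in fibre-low ASC barcodes, and 100% (99.6 to 100) and 94.1% (91.5 to 96.0) in the QSC library. Ryr1 stood at 0.149 (0.115 to 0.189), 0.388 (0.292 to 0.507) and 0.680 (0.311 to 1.29) in the 3 ASC classes. Casq2 was seen 14 times in the ASC and 1 time in the QSC library, too few to place, so calsequestrin UMIs were Casq1 in 96.9% (ASC) and 99.03% (QSC) of cases.

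Myog, the transcription factor of cells committed to form muscle, was used to divide the fibre-low ASC barcodes. Those with at least 2 Myog UMIs (162 barcodes, median 12156 UMIs) were compared with those without any (343 barcodes, median 4531 UMIs). Atp2a2 stood at 68.5 and 44.05 CPM, a log2 ratio of 0.64 (0.28 to 1.004), and per 1000 fibre-list UMIs without 13 slow-list barcodes described below at 3.48 (2.98 to 4.03) and 1.81 (1.48 to 2.20). Pln, at 25.9 and 6.98 CPM, was the 1 of 9 genes at least 2-fold higher and 0 were at least 2-fold lower, where 3.65% of all genes tested were higher and 9.79% lower, with medians of 0.14 and 0.05. Atp2a1 (242 and 220 CPM), Ryr1 (9.67 and 8.72 CPM) and Cacna1s (6.96 and 6.54 CPM) had intervals that included 0, while Trdn, Casq1 and Pvalb had ratios of -0.56, -0.84 and -0.39. Sln and Pln depended on the 13 slow-list barcodes, of which 5 were Myog-high and 6 Myog-zero. Without them Pln had 0 UMIs in Myog-high and 5 in Myog-zero barcodes, and the Sln ratio turned from 0.77 to -1.16 (-1.78 to -0.58).

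The pump inhibitors were concentrated in 13 ASC barcodes with slow-muscle transcripts. No barcode met the slow class first planned, which asked for 50% of troponin and myosin UMIs from slow isoforms among fibre-rich barcodes, so another class was set after the values were seen, at 2% of UMIs from Tnnt1, Tnni1, Tnnc1, Myl2, Myl3 and Myh7. It took 13 ASC barcodes (0.886% of the kept ASC barcodes), all fibre-low, and none in the QSC library, where the highest share was 0.277%. All the fibre genes but Acta1 and Ckm are fast isoforms, so a barcode with mostly slow isoforms could hardly count as fibre-rich. The empty planned class and the fibre-low place of the 13 barcodes therefore do not tell whether slow-fibre barcodes were present. They held 378 of 693 Sln UMIs (54.5%) and 99 of 113 Pln UMIs (87.6%) of the ASC library. Sln stood there at 6713 CPM (6053 to 7425) and Pln at 1758 CPM (1429 to 2140), against 63.2 and 2.17 CPM in fibre-rich ASC barcodes, log2 ratios of 6.73 (6.47 to 6.998) and 9.66 (8.49 to 11.15). Atp2a1 at 337 CPM (19 UMIs) and Pvalb at 1829 CPM (103 UMIs) stood beside levels of 234 and 1742 CPM over all fibre-low barcodes. Casq1 and Casq2 had no UMI among 56311, which allows up to 53.3 CPM, below the 127 CPM of Casq1 in fibre-rich ASC barcodes. Atp2a2, the pump of slow fibres, had 2 UMIs, 35.5 CPM (4.30 to 128).

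**Figure D5:**
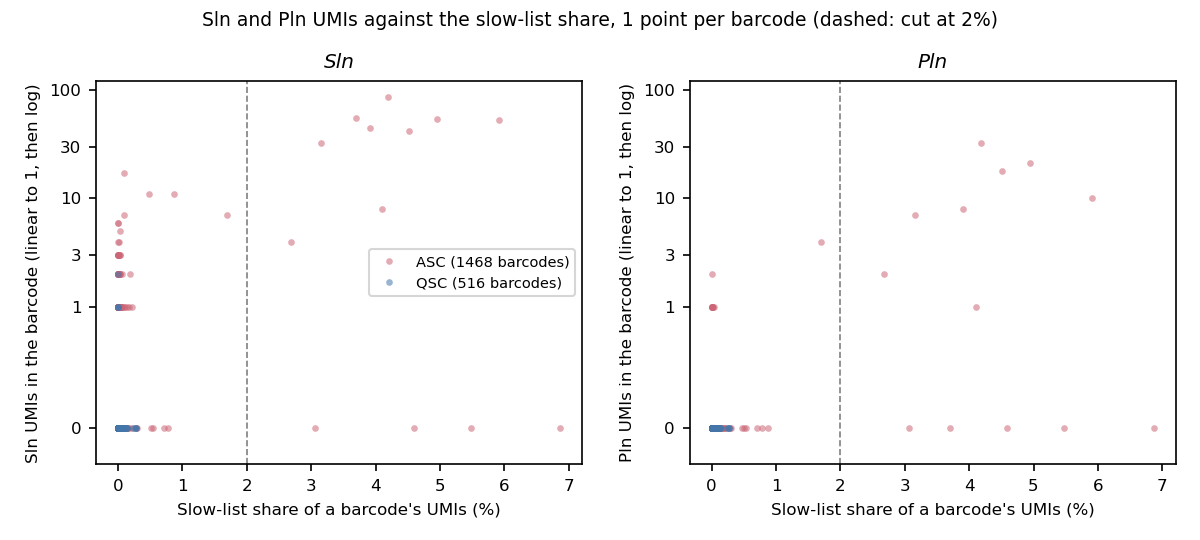
UMIs of Sln (left) and Pln (right) in each kept barcode (vertical axis, linear up to 1 and logarithmic above) against the share of its UMIs from 6 slow isoform genes (percent), with the 1468 ASC barcodes in red, the 516 QSC barcodes in blue and a dashed line at 2%. Of the 13 barcodes beyond the line, 9 hold 4 to 86 Sln UMIs and 4 hold none, while no other barcode exceeds 17.

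The 13 barcodes were of more than one kind. Sln was present in 9 of them, with 4 to 86 UMIs, and 8 of these 9 also held Pln, with 1 to 32 UMIs. The other 4 held neither. All 9 barcodes with Sln carried Myl4, the light chain of embryonic muscle and atria (206 UMIs, 4299 CPM), and among the 4 without Sln, 1 did, with 14 UMIs. Tnnt2, the troponin T of heart and of embryonic muscle, had 130 UMIs among 47920 and 15 among 8391 in the same groups. Of the 130, 71 came from 1 barcode, and all 15 came from the 1 barcode without Sln that held Myl4. The barcodes without Sln had 8391 UMIs together, against 47920, and carried the slow light chain Myl2 at 9772 CPM, against 4007 CPM. These 4 were themselves mixed. The 1 with Myl4 had 0 Myl2 UMIs and 15 Myog UMIs, so the Myl2 value came from the others. Outside the class the highest values were 17 Sln UMIs and 4 Pln UMIs in a barcode. Among fibre-rich ASC barcodes, the 5 with at least 0.3% slow-list UMIs held 22 Sln UMIs, 11 in each of 2 barcodes, or 1269 CPM (795 to 1921), and the other 847 held 153, or 55.6 CPM (47.1 to 65.1). Without the 13 barcodes the ASC library held 315 Sln UMIs (35.6 CPM) and 14 Pln UMIs (1.58 CPM). The log2 ratio of Sln over QSC was then 3.05 (1.81 to 4.68), whereas Pln at 1.58 CPM lay under the QSC floor of 2.58 CPM, so no difference in Pln could be seen.

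The other genes of the calcium apparatus were divided by the same barcode classes. Of 26 further genes, 9 belong to the triad and the coupling of excitation to release, 6 to the lumen and membrane of the reticulum and 11 to the general endoplasmic reticulum and store-operated entry. In fibre-rich over fibre-low ASC barcodes, 8 of 9 triad genes and 5 of 6 reticulum genes were at least 2-fold higher, where 14.0% of all genes tested were higher and 48.5% lower. The triad genes were Jph2 (log2 ratio 3.62) and Jph1 (2.26), the junctophilins that hold the triad membranes together, Stac3 (2.60), Cacnb1 (2.45), Bin1 (2.05), Cacng1 (1.97), Jsrp1 (1.38) and Asph (1.15). The reticulum genes were Tmem38a (2.72), Hrc (2.66), S100a1 (1.998), Srl (1.98) and Mrln (1.31). Of the 8 tested general genes 1 was higher, Tmem38b (1.65), and 3 were lower, the chaperone Calr (-1.92), the inositol trisphosphate receptor Itpr2 (-4.85) and the pump Atp2a3, with 0 against 25 UMIs. In the QSC library 12 of 20 tested genes were higher and 4 lower, beside 17.3% and 47.8% of all genes tested. Higher were Cacnb1 (3.47), Srl (3.38), Jph2 (3.29), Tmem38a (3.22), S100a1 (2.58), Cacng1 (2.55), Stac3 (2.33), Tmem38b (2.17), Bin1 (2.08), Mrln (1.46), Jph1 (1.43) and Jsrp1 (1.38). Lower were Calr (-2.75), Stim2 (-2.32), Cacna2d1 (-1.53, -4.65 to 0.47, from 2 and 26 UMIs) and Itpr2, with 0 against 32 UMIs. The medians were 1.38 over the 23 genes tested in the ASC library and 1.44 over the 20 in the QSC library.

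Between the libraries, the 26 genes were compared class by class. Within fibre-rich barcodes 4 of 20 were at least 2-fold higher in the ASC library and 2 lower, close to the 18.3% and 9.30% of all genes tested, with a median of 0.33 against -0.28 for the members. Higher were Bin1, which shapes the T-tubules (515 and 1423 CPM, log2 ratio 1.47, 1.19 to 1.75), Cacng1, a subunit of the voltage sensor (1.42, 0.64 to 2.35), Calr (1.56, 0.56 to 2.79) and Itpr1, from 1 and 34 UMIs (1.38, -1.20 to 6.72). Lower were Mrln, the gene of the pump-inhibiting peptide myoregulin (274 and 82.7 CPM, -1.73, -2.15 to -1.29), and Hrc, a calcium-binding protein of the lumen (-1.06, -1.86 to -0.17). Within fibre-low barcodes the counts were again close to the 18.4% higher and 23.2% lower of all genes tested. Here 5 of 23 were higher, Cacng1 (2.001), Atp2a3 (1.96, -0.66 to 7.32, from 1 and 25 UMIs), Bin1 (1.49), Tmem38b (1.42) and Fkbp1a (1.04), and 6 were lower, Stim1 (-1.91), Jph1 (-1.79), Itpr2 (-1.69), Mrln (-1.59), Itpr1 (-1.45) and Cacna2d1 (-1.10). Over all kept barcodes 5 of 23 were higher, Cacng1 (2.02), Bin1 (1.81), Atp2a3 (1.71, -0.90 to 7.07), Tmem38b (1.45) and Jph2 (1.02), and 4 lower, Stim1 (-1.97), Itpr2 (-1.91), Mrln (-1.44) and Jph1 (-1.05), beside 16.0% and 23.0% of all genes tested. Between Myog-high and Myog-zero barcodes, Srl (1.63), Stac3 (1.22), Cacng1 (1.18) and Atp2a3 (1.02) were higher and Itpr1 (-1.24) and Itpr2 (-1.02) lower, that is 4 and 2 of 23, beside 3.65% and 9.79% of all genes tested. The Atp2a3 value rests on 16 and 7 UMIs, with an interval of -0.34 to 2.54. Stac3 and Cacng1 encode partners of Cacna1s, which itself had a ratio of 0.09 (-0.98 to 1.18) there.

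The genes lie apart in the genome. In GRCm38 coordinates of the GENCODE M21 annotation, Atp2a1 spans chromosome 7 from 126445858 to 126463108, Atp2a2 chromosome 5 from 122453513 to 122502225, Sln chromosome 9 from 53850164 to 53854560, Pln chromosome 10 from 53337667 to 53345987 and Ryr1 chromosome 7 from 29003344 to 29125179. Cacna1s spans chromosome 1 from 136052750 to 136119822, Trdn chromosome 10 from 33080554 to 33476709, Casq1 chromosome 1 from 172209894 to 172219868, Casq2 chromosome 3 from 102086415 to 102146514 and Pvalb chromosome 15 from 78191114 to 78206400. All are protein-coding genes. Atp2a1, Pln, Ryr1, Cacna1s, Trdn, Casq1 and Casq2 overlap other counted genes, Casq2 on its own strand and the rest on the opposite strand. The counts of Casq2 are therefore less certain. Whether the overlaps on the opposite strand touch the counts depends on the handling of strand, which is not given, and was not tested.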

How the data were processed

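Droplet-based 3' libraries (10x Genomics, v2 chemistry) were analysed for 1 QSC and 1 ASC sample. The deposited values are counts, the whole numbers of UMIs per gene and barcode that the authors obtained with Cell Ranger; the matrix headers give version 6.0.2 and the submitters' processing notes 7.1.0, with Seurat 4.1.0, R 4.1.2 and the build mm10. The annotation and the handling of strand are not given in the sources used here. Of 766 QSC barcodes (1346020 UMIs) and 1650 ASC barcodes (9059807 UMIs), those with at least 500 genes and at most 10% mitochondrial UMIs were kept; 4 barcode sequences occurred in both libraries before this filter. Doublets were not removed.

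UMIs were summed per library and barcode class and scaled to CPM. Levels carry exact Poisson intervals, ratios exact conditional binomial intervals and shares exact Clopper-Pearson intervals (Python 3.11.15, scipy 1.17.1), each at 95% and for counting error only. With 1 library per group no test was possible. Genes with at least 20 UMIs over both sides of a comparison were compared at a limit of 2-fold, with a count of 0 set to 3. The alternatives included the TMM scaling of edgeR 4.0.16 (R 4.3.3). The intervals were run on simulated counts with Poisson error alone, without spread between barcodes or libraries. That run checks the calculation and does not tell how well the intervals cover the error of these libraries. The 10 members, the 26 other genes and the marker lists were chosen with earlier results of these data known. The text names all members, the other calcium genes at least 2-fold apart in the comparisons whose counts it gives and the 3 genes most like a member by Pearson r of log(1 + UMIs per 10000). Of the 32285 features, 99.6% have an identifier in GENCODE M21.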

Additional observations from a re-analysis of the deposited data

Results flagged for a closer look

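Signal of the 10 genes was also present in the barcodes left out of every comparison. The 250 QSC barcodes that failed the filters held 2535 UMIs of the members among 183929, of which 1584 were Pvalb and 691 Atp2a1, against 4618 member UMIs in the 516 kept barcodes. The 182 ASC barcodes left out held 1267 among 163992, of which 1007 were Pvalb and 172 Atp2a1, against 55930 in the kept ones. In the kept barcodes the members made up 0.397% of QSC and 0.629% of ASC UMIs. Their share was higher in the barcodes left out of both libraries, and by more in the QSC library. None of the 10 genes had ratios of opposite sign in fibre-rich and fibre-low barcodes with both intervals excluding 0.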

How the results depend on the processing

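No paired analysis was possible because each group has 1 library. No setting leaves out a replicate for the same reason, and the slow-rich class planned at first was not run because no barcode met it. The Myh classes, the slow-list-high class and the removal of its 13 barcodes were chosen after seeing the data. Of 594 gene ratios under alternatives 444 stayed within the counting interval of the reported value, and 47 changed sign. Of the 47, 31 belonged to ratios whose own interval held 0, 27 of them of Cacna1s or Ryr1 (for example Cacna1s over all kept barcodes, -0.90 at the 1% mitochondrial limit), and the 16 others are given below. Among fibre-rich barcodes the ASC over QSC ratios ran from -1.65 to -0.66 for Atp2a1, -1.81 to -1.39 for Trdn, -1.73 to -1.08 for Casq1 and -0.05 to 0.62 for Pvalb. The causes of the changes below were not tested, apart from the removal of barcodes itself.

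Counts of members at least 2-fold apart differed as follows. Over all kept barcodes, ASC over QSC, 1 was higher and 3 lower with a mitochondrial limit of 1%, and 2 lower at 5%. Among fibre-rich barcodes the number higher was 2 at a fibre limit of 5%, 0 at 20% and 0 in Myh4-dominant barcodes. Among fibre-low barcodes 1 was higher at a mitochondrial limit of 1% or a fibre limit of 5%, 4 were lower under either, and 0 were lower at a mitochondrial limit of 5%, a fibre limit of 20%, without the 5% of barcodes with the most UMIs, with the mean of barcode CPM and with TMM scaling. The 1% mitochondrial limit left only 2 fibre-low QSC barcodes, so fibre-low counts at that limit carry little weight. Fibre-rich over fibre-low in the QSC library, 3 were higher at the 1% mitochondrial limit, and 0 were lower there, at 5%, with at least 1000 genes, without the top 5%, with TMM, with scaling to UMIs outside fibre, slow and member genes and at a fibre limit of 20%. In the ASC library 1 was lower at a fibre limit of 5% and without the 13 barcodes. Myog-high over Myog-zero, the number higher was 4 at the 1% mitochondrial limit, 2 without the top 5%, 3 with the mean of barcode CPM, 0 and 2 at fibre limits of 5% and 20%, and 0 without the 13 barcodes; the number lower was 1, 5 and 1 under the last 3.

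The log2 ratios with an interval off 0 that changed sign were, over all kept barcodes, Trdn with at least 1000 genes (0.014) and, with the mean of barcode CPM, Atp2a1 (0.16) and Atp2a2 (-0.38). They were Pvalb in Myh4-dominant barcodes (-0.050), and in fibre-low ones Trdn with the mean of barcode CPM (0.30) and Atp2a1 at a fibre limit of 20% (0.020). Fibre-rich over fibre-low, they were Cacna1s in the QSC library at the 1% mitochondrial limit (-0.96, against 2 fibre-low barcodes), and in the ASC library Sln with TMM (0.12), at a fibre limit of 5% (1.95) and without the 13 barcodes (1.45), and Pln under the last 2 (3.62 and 0.72). Myog-high over Myog-zero, they were Trdn at the 1% mitochondrial limit (1.06) and with the mean of barcode CPM (0.40), and Sln at a fibre limit of 5% (-1.76) and without the 13 barcodes (-1.16). TMM moved the median gene by 0.31 over all kept barcodes, 0.16 in fibre-rich and 0.32 in fibre-low ones (ASC over QSC), and by 0.18 and 0.54 fibre-rich over fibre-low in the QSC and ASC libraries.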
